A study of Mus musculus with 35 samples.

Results

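RNA of repetitive elements was compared between the hippocampus of rTg4510 mice and that of non-transgenic mice at 6 months of age. The comparison rests on 12 of the 35 libraries of the study, 6 titled rTg4510 and 6 titled non-transgenic, and on 857 of the 1153 rows of the table of normalized counts, those that reached 10 in 5 or more of the 12 libraries. The line rTg4510 has a human tau transgene with a dementia-linked mutation behind a tetracycline-responsive promoter, and a second transgene, in which the Camk2a promoter drives the transactivator in excitatory forebrain neurons. Both groups come from founders on a mixed background of 129S6 and FVB, and no drug treatment is given in the labels. Each transgene is known to have disrupted genes where it inserted, Fgf14 among them, so an effect of tau and an effect of these insertions cannot be told apart here. Each row sums the reads of all genomic copies of 1 repeat subfamily, called an element below, and no gene is among the rows used. Neither the tau transgene nor markers of hippocampal cell types could therefore be checked, and the tissue entry of the labels names a total brain lysate where the source name gives the hippocampus. The title of each library holds a sample number, read here as the number of an animal, and p-values measure the spread between these samples.

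Transposable elements are copied segments that fill much of the mouse genome. SINEs and LINEs move through an RNA copy, SINEs with the enzymes that LINEs encode. LTR elements are the remains of retroviruses and their relatives, and DNA transposons moved without an RNA step. In brain RNA most of their sequence is read as part of introns, untranslated regions and other long transcripts rather than from a promoter of the element, and heterochromatin, which tau pathology is reported to loosen in several models, is one of the layers that silence them.

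The genotype in the characteristics of the labels differs from that in the title for 6 of the 12 libraries, so that each of the 4 combinations of the labels holds 3 libraries. Groups follow the titles, and the values by the other label are given beside the main results. The 12 libraries hold 664429 to 950632 reads in the rows of the table, with a mean of 825750 ± 107511 (SD, n = 12), and the median tested row had a mean of 132.7 reads per library. Sample_183, titled non-transgenic, stood apart with a typical element level of -0.35 (median log2 ratio to the average of the 12 libraries), while the other 11 lay between -0.13 and 0.18. The mean typical level differed by -0.02 between the genotypes (exact permutation p = 0.831, two-sided, n = 6 and 6). Because such a shift moves every row of a library together, counts of called rows and the 3 called elements are given on the deposited scale and on values rescaled with TMM (trimmed mean of M-values) factors, which take that shift out. Rescaling moved the median log2 fold change of the 857 rows from -0.03 to 0.003, and the rows above 0 from 320 to 440, which is 51.3% of them.

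Few elements passed the limma threshold between the genotypes at this age, namely 1 SINE and 2 LTR elements counted over both scales. Only MamGypLTR3a passed on both. On the TMM scale limma called 2 of 857 elements (0.233%) at an adjusted p under 0.05, the SINE B3 as higher and the LTR element MamGypLTR3a as lower in rTg4510, 0.117% of rows in each direction. On the deposited scale it also called 2 (0.233%), MamGypLTR3a as lower and the LTR element RLTR45-int as higher, again 0.117% in each direction. Rows at an unadjusted p under 0.05 numbered 95 on the TMM scale (11.1%), of which 44 were higher (5.13%) and 51 lower (5.95%) in rTg4510, and 41 on the deposited scale (4.78%). The genotype groups did not overlap on the TMM scale in 10 rows (1.17%), namely 4 with rTg4510 higher (0.467%) and 6 with rTg4510 lower (0.7%). On the deposited scale this was so for 0 rows higher (0%) and 1 row lower (0.117%). On recovered reads edgeR's quasi-likelihood test called the same 2 elements as limma on the TMM scale, and DESeq2 with the factors of the authors called MamGypLTR3a alone. By class on the TMM scale, rows higher and lower at an unadjusted p under 0.05 numbered 2 and 0 of 35 tested SINE rows and 4 and 12 of 137 LINE rows. For LTR elements they numbered 31 and 26 of 511 and for DNA transposons 4 and 9 of 142, beside 44 and 51 of all 857. The values of groups of rows below are on the TMM scale unless another is named, and called means past the limma threshold.

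**Figure D1:**
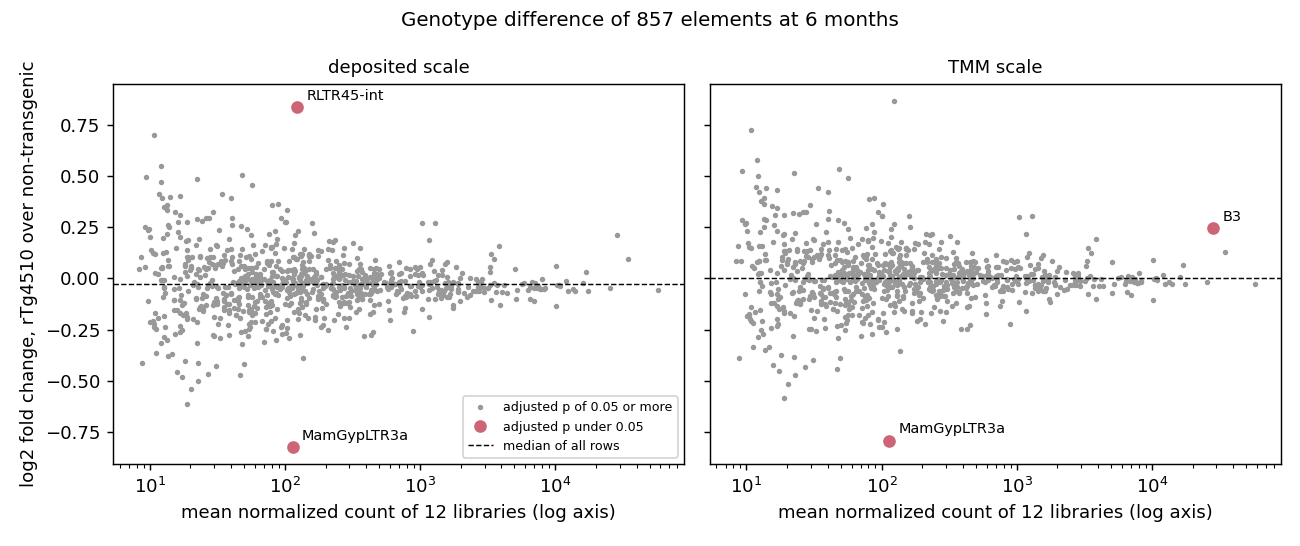
Log2 fold change of rTg4510 over non-transgenic libraries for 857 elements (vertical axis) against the mean normalized count of the 12 libraries (horizontal log axis), on the deposited scale (left) and the TMM scale (right), with called elements in red and the median of all rows as a dashed line. B3 stands alone at 0.25 among the most counted elements, and MamGypLTR3a lies at the bottom of both panels.

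B3 is a rodent SINE of the B2 family, a family that descends from a tRNA and is transcribed by RNA polymerase III where a copy keeps its promoter. TMM-rescaled counts of B3 were 25348 (lowest), 26225 (median) and 26527 (highest) in non-transgenic libraries and 29997, 31055 and 31680 in rTg4510 libraries. All 6 rTg4510 libraries lay above all 6 non-transgenic ones. Counts in rTg4510 were 1.19 times those in non-transgenic libraries (log2 fold change 0.25, SE 0.0249, 95% interval 0.19 to 0.30, limma adjusted p = 5.34e-06). On the deposited scale its counts were 19859, 27303 and 29090 in non-transgenic and 26852, 30678 and 32746 in rTg4510 libraries, and the ranges overlapped. There the log2 fold change was 0.21 (95% interval -0.01 to 0.43) with a limma adjusted p of 0.996. Sample_183 held the lowest count, and without it the deposited-scale value was 0.13 (limma adjusted p = 0.38). In bulk RNA, fewer cells of a type and less RNA per cell cannot be told apart, for this and for every other row. Grouped by the genotype in the characteristics, B3 differed by 0.004 (limma adjusted p = 0.997) on the TMM scale.

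The other members of the B2 family had differences near 0. B3A, its closest relative by name, had TMM-rescaled counts of 10420, 10935 and 11084 in non-transgenic and 10547, 10783 and 11177 in rTg4510 libraries, ranges that overlapped almost fully. Its log2 fold change was -0.01 (SE 0.0267, limma adjusted p = 0.971). B2_Mm2, B2_Mm1t and B2_Mm1a, the subfamilies of younger B2 copies, had log2 fold changes of -0.02, -0.01 and 0.03, and of the 5 B2 rows, all of which were tested, 1 was called and the median was -0.01. The summed counts of the 4 rows other than B3 differed by -0.01 on the log2 scale (exact permutation p = 0.667, n = 6 and 6). Reads that match several related subfamilies may be divided between their rows, and how they were assigned is not given in the sources used here.

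Ratios within a library do not depend on the scaling, and they separated the genotypes of the titles as well. These ratios were chosen with results of these data known. The measures below hold the same B3 counts, so they restate its difference free of the scaling and are no separate evidence for it. The log2 ratio of B3 to B3A ran from 1.22 to 1.30 in non-transgenic libraries and from 1.46 to 1.59 in rTg4510 libraries. The log2 ratio of B3 to the other 4 B2 rows was -0.17 ± 0.028 (SD, n = 6) against 0.08 ± 0.064 (n = 6), a difference of 0.26 (exact permutation p = 0.00216, the smallest that 6 against 6 libraries allow). B3 took 4.02% ± 0.083 of all normalized counts other than those of ORR1A4 and L1Md_T in non-transgenic and 4.73% ± 0.062 in rTg4510 libraries (n = 6 each, exact permutation p = 0.00216). No library of one group entered the range of the other in these 3 measures.

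The B3 difference was of similar size within lanes and within each genotype of the characteristics. As the groups did not overlap over the 12 libraries, each subset had to give its smallest possible p, and only the sizes are informative. The libraries were sequenced in lanes 6, 7 and 8, with 1, 4 and 1 non-transgenic and 0, 3 and 3 rTg4510 libraries in them. Within lane 7 the log2 difference of B3 was 0.25 (4 against 3 libraries, exact permutation p = 0.0286, the smallest this allows), and within lane 8 it was 0.24 (1 against 3, smallest possible p 0.25). Among the 6 libraries that the characteristics call non-transgenic it was 0.25, and among the 6 that they call rTg4510 it was also 0.25 (3 against 3 each, exact permutation p = 0.1, the smallest this allows).

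**Figure D2:**
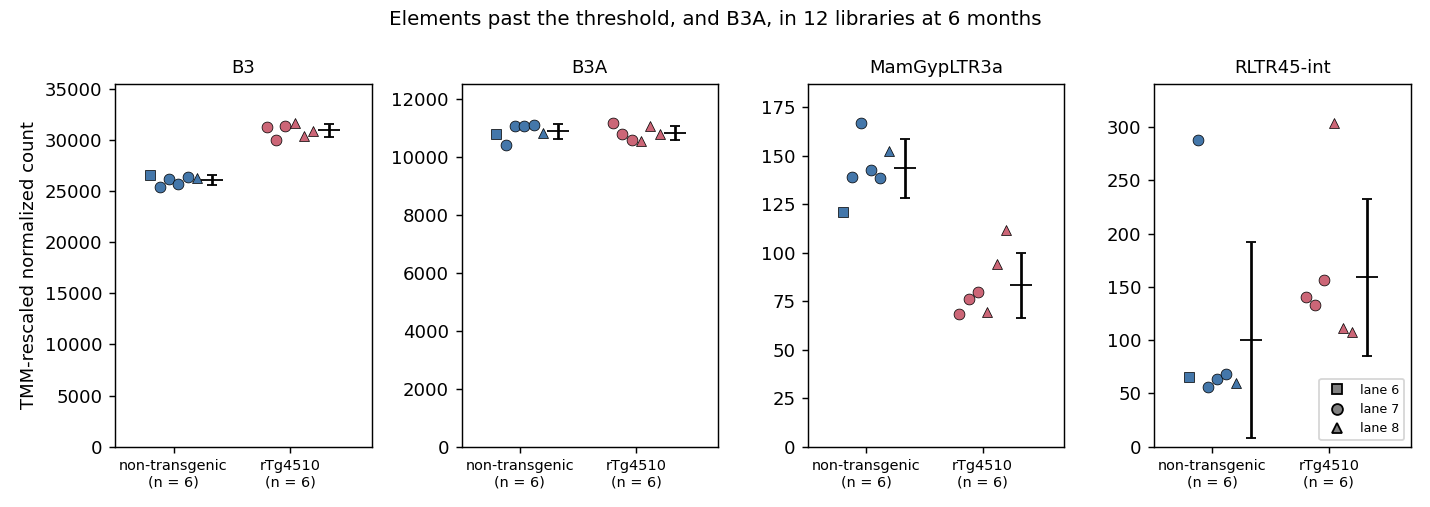
TMM-rescaled normalized counts (vertical axis, from 0) of B3, B3A, MamGypLTR3a and RLTR45-int in 6 non-transgenic (blue) and 6 rTg4510 libraries (red), with symbols for the lane and black bars for the mean and SD. The groups of B3 and of MamGypLTR3a do not overlap, those of B3A do, and in RLTR45-int 1 library of each group, at 288 and 304, lies far above the rest.

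Among the other SINEs no row was called by limma. Of 35 SINE rows, all tested, 1 was called, 12 were above 0 and the median log2 fold change was -0.01, beside 440 of 857 and 0.003 over all rows. The Alu family, which in the mouse consists of B1 elements and their relatives derived from 7SL RNA, had a median of 0.004 over 16 rows, with B1_Mus1 at 0.01, PB1D10 at 0.06 and 0 rows called. B1F, an old B1 subfamily, had counts of 9582, 9950 and 10017 in non-transgenic and 10100, 10553 and 10938 in rTg4510 libraries, groups that did not overlap, with a log2 fold change of 0.09 (limma adjusted p = 0.126). The B4 family (4 rows), the ID family (4 rows) and the MIR family, which is shared by mammals (4 rows), had medians of -0.015, -0.022 and -0.024 with 0 rows called. Their most counted rows ID_B1, ID4 and MIRb were at -0.02, -0.02 and -0.03.

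MamGypLTR3a is an LTR related to the Gypsy group of retrotransposons, found across mammals and long inactive. In non-transgenic libraries its TMM-rescaled counts were 121, 141 and 167.2 (lowest, median, highest), and in rTg4510 libraries 68.6, 78.0 and 112. The groups did not overlap, and the highest rTg4510 values, 94.1 in Sample_197 and 112 in Sample_198, both came from lane 8. Counts in rTg4510 were 0.577 times those in non-transgenic libraries (log2 fold change -0.79, SE 0.111, 95% interval -1.03 to -0.56, limma adjusted p = 0.000377). The deposited values gave -0.82 (limma adjusted p = 1.69e-05), with ranges of 109 to 170 and 64.6 to 119 that overlapped. The row rests on as few as 75 reads in a library. Within lane 7 the log2 difference was -0.96 (exact permutation p = 0.0286, the smallest possible, which groups that do not overlap must give). Within lane 8 it was -0.76, and within the libraries called non-transgenic and rTg4510 by the characteristics it was -0.91 and -0.68. By the characteristics alone it was 0.15 (limma adjusted p = 0.997), and in a fit of all 35 libraries the value was -0.80 with a limma adjusted p of 0.527.

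No other row of the Gypsy family was called. Of 20 rows, 10 were tested, 3 of them lay above 0, 1 was called and the median log2 fold change was -0.08. LTR104_Mam, 1 of the 2 most counted rows of the family, had counts of 1075, 1134 and 1344 in non-transgenic and 1174, 1429 and 1723 in rTg4510 libraries. These ranges overlapped, and the log2 fold change was 0.30 (SE 0.0758, limma adjusted p = 0.0808). LTR81 was at -0.03 and its relative LTR81B at -0.44 (limma adjusted p = 0.926 and 0.286). Summed over the family the log2 fold change was 0.06 (95% interval -0.07 to 0.18).

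RLTR45-int is the internal, protein-coding part of a mouse endogenous retrovirus of the ERVK family, and RLTR45 is the LTR that flanks it. TMM-rescaled counts of RLTR45-int were 56.0, 64.8 and 288 in non-transgenic and 108, 137 and 304 in rTg4510 libraries. Sample_183 alone brought the non-transgenic group into the rTg4510 range, since the other 5 lay between 56.0 and 68.2, and Sample_196 held the highest rTg4510 value. The log2 fold change was 0.84 on the deposited scale (95% interval 0.51 to 1.17, limma adjusted p = 0.00101) and 0.87 on the TMM scale (SE 0.316, 95% interval 0.21 to 1.53, limma adjusted p = 0.241). Exact permutation tests of the row alone gave p = 0.0519 and p = 0.0866 on these scales (n = 6 and 6). Without Sample_183 the value on the TMM scale was 1.23, given with no test because this library stands out by its value in this row. None of the other alternatives grouped by title called the row on the TMM scale.

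The call of RLTR45-int on the deposited scale leaned on variance shared across rows, as the prior of the fit weighed 88.3 degrees of freedom against the 10 of the row itself. It was called there in 17 of 23 alternatives grouped by title, 11 of them fits that left out 1 library. It was not called with a robust prior (limma adjusted p = 0.935), by DESeq2 (adjusted p = 0.996) or with all 35 libraries (limma, 0.997). Nor was it called in lane 7 alone (limma, 0.999), without a filter on low rows (limma, 0.176) or without Sample_189 (limma, 0.0858). RLTR45 itself had counts of 57.6, 71.2 and 79.0 in non-transgenic and 64.3, 95.5 and 110 in rTg4510 libraries. In 5 of the 6 rTg4510 libraries it was above every non-transgenic library, Sample_198 being the exception. Its log2 fold change was 0.39 (SE 0.118, limma adjusted p = 0.142), and this relative was chosen after its values were seen.

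ERVK elements as a family, among them the youngest mouse retroviruses, spread to both sides of 0. Of 285 rows, 241 were tested, 140 were above 0 on the TMM scale and 108 on the deposited scale, and the medians were 0.02 and -0.01. On the TMM scale 18 rows were higher and 4 lower at an unadjusted p under 0.05, beside 44 and 51 of all 857, and 0 were called. MurERV4_19-int had counts of 74.1, 94.5 and 105 against 104, 117 and 126, with a log2 fold change of 0.37 (limma adjusted p = 0.0939). MLTR13 had 35.4, 47.1 and 60.6 against 59.0, 65.1 and 84.9, with a log2 fold change of 0.49 (limma adjusted p = 0.111). Both pairs of ranges overlapped at their edges.

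IAP elements, young retroviruses that still insert in laboratory strains, had 20 of 25 rows tested, 14 above 0 and a median log2 fold change of 0.08, with 0 called. The 2 most counted, IAPEz-int and IAPLTR1_Mm, were at -0.06 and -0.05, and the row of smallest p, IAPA_MM-int, was at 0.44 (limma adjusted p = 0.21) from counts of 20.8 to 37.1 against 34.5 to 50.9. The summed IAP counts averaged 2831 in non-transgenic and 2829.9 in rTg4510 libraries. ETn and MusD elements, another mobile group, had a median of -0.004 over 5 rows, with ETnERV-int at -0.17 (limma adjusted p = 0.45) and MMETn-int at -0.02. Repeats named for the Y chromosome had 8 of 10 rows tested and 7 above 0, with a median of 0.08, CYRA11_Mm at 0.02 and IAPEY4_I-int at 0.30 (limma adjusted p = 0.21).

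ERV1 and ERVL, the other retroviral families, had 0 rows called. ERV1 had 85 of 149 rows tested, 42 of them above 0, and a median of -0.001. MERV1_I-int, its row of smallest p, had counts of 78.4, 81.5 and 93.05 in non-transgenic and 94.4, 104 and 117 in rTg4510 libraries. The groups did not overlap, and the log2 fold change was 0.33 (SE 0.0781, limma adjusted p = 0.0808). RLTR30D_MM also had groups that did not overlap, at 64.1 to 80.4 and 80.9 to 134, with a log2 fold change of 0.40 (limma adjusted p = 0.125). LTRIS6 had a log2 fold change of -0.58 (limma adjusted p = 0.132) at counts of 18.1 to 30.2 against 11.54 to 19.1. MuLV and VL30 elements, relatives of murine leukemia virus, had 5 of 6 rows tested and a median of -0.08, with RLTR6-int at 0.17 (limma adjusted p = 0.424).

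ERVL had 82 of 113 rows tested, 45 above 0 and a median of 0.015. MERVL elements, known for their burst of transcription in the early mouse embryo, gave -0.06 for MERVL_2A-int and -0.004 for MT2_Mm, with 0 of 3 rows called. MER74B was at -0.39 (limma adjusted p = 0.125) and MT2B, the most counted row of the family, at 0.15 (limma adjusted p = 0.146). The MaLR relatives (family ERVL-MaLR) had 91 of 108 rows tested, 43 above 0 and a median of -0.005. MLT1I, shared by mammals, had counts of 451, 490 and 500 in non-transgenic and 376, 408 and 479 in rTg4510 libraries, ranges that overlapped, with a log2 fold change of -0.23 (SE 0.056, limma adjusted p = 0.0808). MTD, among the most counted LTR rows, was at -0.015 (limma adjusted p = 0.923). MTB-int, named after its values were seen, had groups that did not overlap, at 133 to 148 and 101 to 130, with a log2 fold change of -0.24 (limma adjusted p = 0.142).

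Among LINEs, the L2 rows all had negative log2 fold changes, none of which passed the threshold. L2 is an ancient LINE family, long immobile and shared by mammals. All 4 rows were below 0 on both scales, with a median of -0.09 on the TMM scale, beside 0.003 over all rows, and all 4 had an unadjusted p under 0.05 while 0 were called. L2a had counts of 6554, 6688 and 6929 in non-transgenic and 6264, 6418 and 6486 in rTg4510 libraries, groups that did not overlap (log2 fold change -0.07, limma adjusted p = 0.28). L2b was at -0.10 (limma adjusted p = 0.204), L2c at -0.10 (0.126) and L2 itself at -0.08 (0.28). The family sum was 27404, 28311 and 29900 in non-transgenic and 25907, 26816 and 27706 in rTg4510 libraries, and the ranges overlapped. Its log2 fold change was -0.09 (SE 0.0252, limma adjusted p = 0.0594 over 50 families). The L2 sum passed the threshold in 4 of 23 alternatives grouped by title. These were without ORR1A4 and L1Md_T, with a filter of 50 counts, with array weights and without Sample_198, at limma adjusted p of 0.0219, 0.0173, 0.0379 and 0.0403. The limma adjusted p was 0.889 with all 35 libraries, 0.277 in lane 7 alone and 0.159 with lane as a factor.

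L1, the LINE family that is still mobile in mice, had 118 of 133 rows tested, 66 above 0, a median of 0.01 and 0 called. L1Md_T, a young subfamily, varied more between libraries than between genotypes, from 0.262% to 14.2% of the reads of a library. Its mean share was 4.77% ± 5.87 in non-transgenic and 3.68% ± 3.67 in rTg4510 libraries (n = 6 each, exact permutation p = 0.712). The 11 rows of the young L1 list had a median of 0.003, with L1Md_F2 at -0.002 and L1_Mm at 0.21 (limma adjusted p = 0.21). HAL1b, an old relative of L1, had counts of 124, 142 and 157 against 152, 174.9 and 194.7, ranges that overlapped slightly, with a log2 fold change of 0.30 (SE 0.0775, limma adjusted p = 0.0845). Lx3A and L1M3de, named after their values were seen, had groups that did not overlap and log2 fold changes of -0.13 and -0.43 (limma adjusted p = 0.125 each). In the CR1 family, 10 of 15 rows were tested, with a median of -0.08 and 3 above 0. There X6B_LINE was at -0.22 (limma adjusted p = 0.101) and the most counted row, L3, at 0.003.

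DNA transposons had 142 rows tested, 66 above 0, a median of -0.01 and 0 called. Charlie8, of the hAT-Charlie family, had counts of 853, 928 and 1026 in non-transgenic and 972, 1070 and 1401 in rTg4510 libraries. Its ranges overlapped, with rTg4510 libraries Sample_191 and Sample_196 at 1336 and 1401, and the log2 fold change was 0.30 (SE 0.0751, limma adjusted p = 0.0808). The most counted rows of that family, URR1A and URR1B, were at 0.06 and 0.01. Kanga1a of the TcMar-Tc2 family was at -0.22 (limma adjusted p = 0.125) and Tigger16a of TcMar-Tigger at 0.25 (limma adjusted p = 0.201), with family medians of 0.07 and -0.01. MER96B of hAT-Tip100 was at -0.24 (limma adjusted p = 0.146).

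Repeats outside these classes also gave values near 0 or short of the threshold as single rows. ZP3AR, a satellite, had counts of 1214, 1224 and 1283 in non-transgenic and 996, 1115 and 1179 in rTg4510 libraries, groups that did not overlap, with a log2 fold change of -0.16 (SE 0.0388, limma adjusted p = 0.0808). The 4 tested satellite rows of 9 had a median of -0.03 and 0 were called, with IMPB_01 at -0.07. 7SK, an RNA that restrains transcription elongation, was at -0.21 (limma adjusted p = 0.374) from counts of 97.9 to 122 against 81.5 to 118. UCON31, a conserved repeat whose class is unknown, had counts of 141, 148 and 176.7 in non-transgenic and 104, 117 and 151 in rTg4510 libraries, with 5 of 6 rTg4510 libraries below all non-transgenic ones. Its log2 fold change was -0.36 (SE 0.0889, limma adjusted p = 0.0808 among the 857 rows).

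Summed over families, 2 of 50 (4%) passed a limma adjusted p of 0.05 and 6 (12%) an unadjusted p of 0.05. The B2 sum was 53193, 55968 and 56830 in non-transgenic and 58748, 60573 and 60879 in rTg4510 libraries, and the groups did not overlap. The rTg4510 sum was 1.08 times the non-transgenic one (log2 fold change 0.12, SE 0.0221, 95% interval 0.07 to 0.16, limma adjusted p = 0.00673), and B3 is the row of the 5 that was called. The other family was UCON31, which is the single row above and passed among the 50 sums at a limma adjusted p of 0.0428. The call of B2 was lost without Sample_184, Sample_191, Sample_192, Sample_193 or Sample_196, at limma adjusted p between 0.0557 and 0.0826, and within lane 7 alone (0.277), while its log2 fold change stayed between 0.10 and 0.12. The call of UCON31 was kept in 2 of the 12 fits that left out 1 library.

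The other family sums had intervals that included 0 or missed the threshold after adjustment. The narrow ones limit how far a family can have moved relative to the typical row. A shift shared by the repeat rows is taken out by the TMM factors, which come from these rows, and is not limited by the intervals. ERV1 had an interval of -0.01 to 0.06, ERVK of -0.03 to 0.07, ERVL of -0.03 to 0.06 and B4 of -0.06 to 0.02. L1 had -0.52 to 0.38 and ERVL-MaLR -0.23 to 0.20, both holding a row whose share varied between libraries. Without L1Md_T and ORR1A4 those intervals were -0.03 to 0.03 and -0.03 to 0.02.

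**Figure D3:**
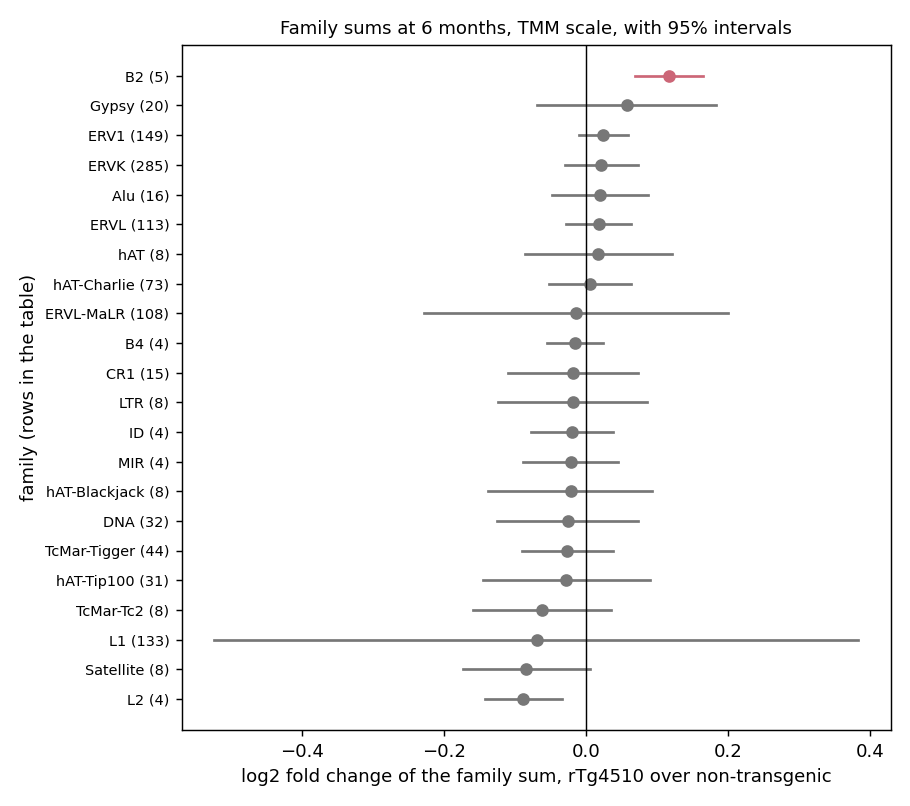
Log2 fold change of rTg4510 over non-transgenic libraries (horizontal axis) of the summed TMM-rescaled counts of each family with at least 4 tested rows, with 95% intervals and the number of rows in the table in brackets. B2 in red, at 0.12, passed the threshold, L2 at -0.09 lies at the lower end, and L1 and ERVL-MaLR have the widest intervals.

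The shares of the 4 main classes were close between genotypes. Leaving out ORR1A4 and L1Md_T, SINEs held 46.7% ± 0.413 of the normalized counts in non-transgenic and 47.1% ± 0.479 in rTg4510 libraries (n = 6 each, exact permutation adjusted p = 0.286 over 4 classes). LINEs held 20.2% ± 0.234 and 19.8% ± 0.31 (exact permutation p = 0.0498, adjusted p = 0.199, n = 6 each), LTR elements 24.7% ± 0.197 and 24.7% ± 0.345 (adjusted exact permutation p = 0.639) and DNA transposons 6.65% ± 0.165 and 6.58% ± 0.128 (adjusted exact permutation p = 0.603). Each pair of ranges overlapped. Leaving out 1 library at a time, the difference of the LINE share ran from -0.47 to -0.276 percentage points. The value of -0.47 came without Sample_189, which held the highest LINE share of the rTg4510 libraries (20.4%). It is given with no test, because that share singles this library out. ORR1A4, a MaLR element, took 5.88% to 12.6% of the reads of a library, with no detectable difference between genotypes (exact permutation p = 0.903, n = 6 and 6).

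Some elements that were not called by the genotype of the title differed between lanes. By the characteristics all 4 libraries of lane 8 are rTg4510 and 5 of the 7 of lane 7 non-transgenic, so lane and that label largely coincide. With the genotype of the title in the same limma fit on the TMM scale, 8 of 857 rows (0.933%) differed between lane 8 (4 libraries) and lane 7 (7 libraries), all higher in lane 8, and 0 were lower (0%). L1MEd had 731 to 962 counts in lane 7 and 1282 to 1904 in lane 8 (log2 fold change 0.94, limma adjusted p = 4.31e-06). ETnERV2-int had 41.0 to 81.3 and 111 to 231 (1.502, limma adjusted p = 5.7e-05), and B1_Mm had 4397 to 4870 and 5602 to 5918 (0.31, limma adjusted p = 3.71e-05). L1Md_T, RMER17B, B2_Mm1a, B1_Mus1 and B1_Mus2 made up the rest, with L1Md_T at 3.09. None of the 8 was called by the genotype of the title, where their limma adjusted p ran from 0.658 to 0.991. Lane 8 also held 3 of the 6 rTg4510 libraries and 1 of the 6 non-transgenic ones, and what else separated the animals or preparations of the lanes was not tested.

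**Figure D4:**
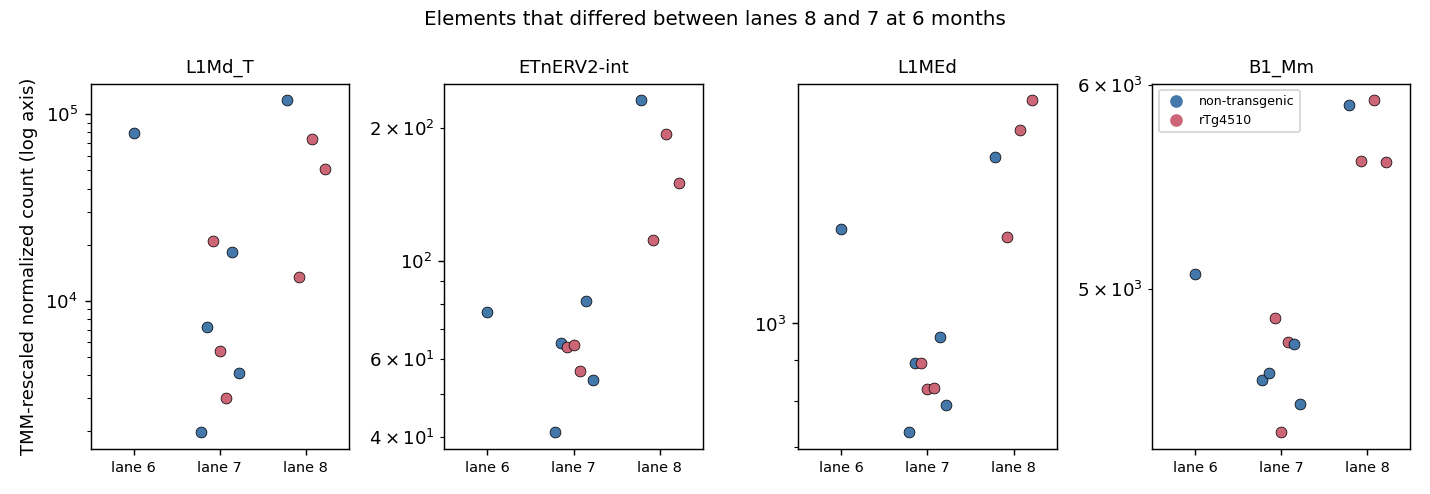
TMM-rescaled normalized counts (vertical log axis) of 4 elements in the 12 libraries, by the lane of the library (horizontal axis) and the genotype of the title (colour). In ETnERV2-int, L1MEd and B1_Mm every lane 8 library lies above every lane 7 library, and both title genotypes are found high in lane 8, whose 4 libraries are all rTg4510 by the characteristics.

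The differences at 6 months were also set beside those at the other ages, in a limma fit of all 35 libraries on the TMM scale. Title and characteristics also disagree on the genotype of some libraries at 3 and 9 months, where groups follow the titles. No value by the other label was computed for those ages. The ages also lie in partly different lanes, so a change with age and one with lane cannot be told apart here. B3 had log2 fold changes of 0.29 at 3 months, 0.24 at 6 months and 0.08 at 9 months (limma adjusted p = 7.3e-10, 1e-07 and 0.062). The difference at 6 months minus that at 3 months was -0.05 (SE 0.0383, limma adjusted p = 0.999), and minus that at 9 months it was 0.17 (SE 0.0392, limma adjusted p = 0.0578). B3 medians were 33302, 31646 and 29749 counts in rTg4510 at 3, 6 and 9 months and 27133, 26708 and 27447 in non-transgenic libraries.

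MamGypLTR3a was lower in rTg4510 by value at each age, with log2 fold changes of -0.47, -0.80 and -0.58 at 3, 6 and 9 months, of which none passed in this fit (limma adjusted p = 0.999, 0.527 and 0.0851). RLTR45-int gave 0.44, 0.87 and 0.73 (limma adjusted p = 0.999, 0.71 and 0.156). At 9 months Sample_207, titled non-transgenic, and Sample_208, titled rTg4510, lay on the side of the other genotype in these 3 elements. The values without both, a choice made after seeing them, are given with no test, because these same values picked the libraries left out. B3 then had 27107 to 27542 counts in 5 non-transgenic and 28439 to 30423 in 4 rTg4510 libraries at 9 months (log2 fold change 0.12). That these groups no longer overlapped follows from the choice of libraries. MamGypLTR3a had 101.5 to 150.5 and 46.6 to 61.97 counts (log2 fold change -1.12), and RLTR45-int 54.1 to 78.6 and 123.2 to 202.3 counts (1.42). The difference at 6 minus 9 months changed from 0.17 to 0.12 for B3. It changed sign for MamGypLTR3a, from -0.21 to 0.33, and for RLTR45-int, from 0.14 to -0.56. No row (0%) had a genotype difference at 6 months that limma called different from that at 3 months, with 19 of 857 at an unadjusted p under 0.05. Against 9 months 1 row was called (0.117%), with 159 at an unadjusted p under 0.05. It was IAPEY4_I-int, an internal part of a Y-named IAP element, at 0.30 and -0.64 (difference 0.94, SE 0.206, limma adjusted p = 0.0488). Calls without Sample_207 and Sample_208 are not read as results, because these libraries were picked by their values. Only their number is given, with the other alternatives below.

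**Figure D5:**
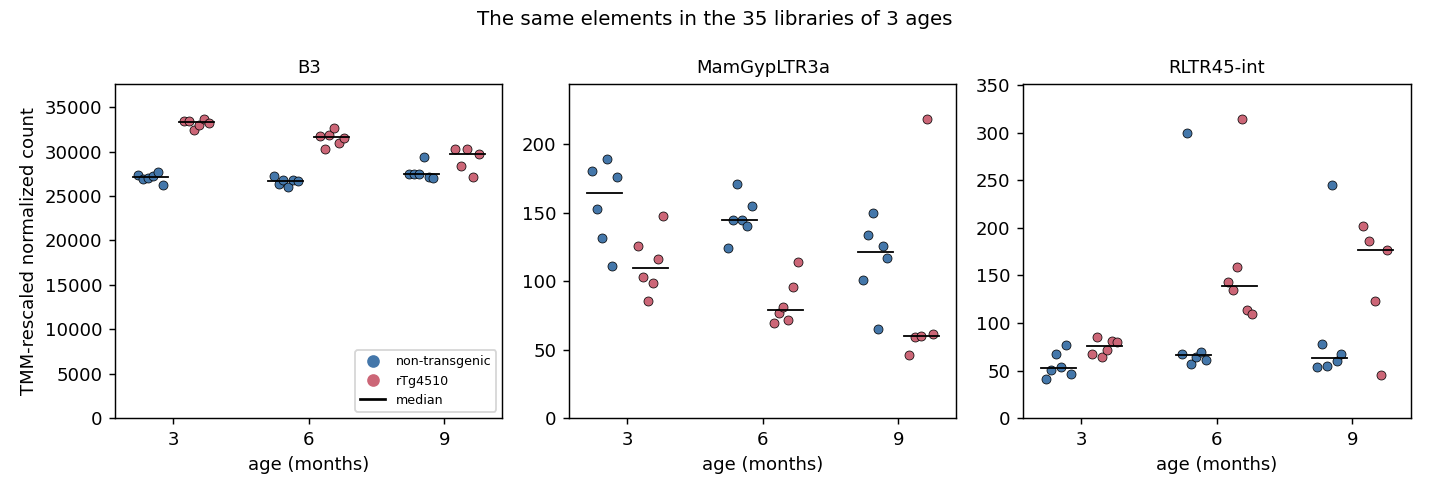
TMM-rescaled normalized counts (vertical axis, from 0) of B3, MamGypLTR3a and RLTR45-int in the 35 libraries by age in months (horizontal axis) and genotype of the title (colour), with black lines at group medians. The B3 groups are apart at 3 and 6 months and overlap at 9 months through Sample_207 and Sample_208. In RLTR45-int 1 non-transgenic library at 6 months and 1 at 9 months stand high, and 1 rTg4510 library at 9 months stands low.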

How the data were processed

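Total RNA depleted of ribosomal RNA was sequenced with stranded paired reads of 76 bases, per the labels' protocols. The authors deposited normalized counts, a signal scaled by 1 factor per library. Trimmomatic, STAR and DESeq2, with the build mm10, appear in the submitters' processing notes. How repeats were annotated and counted, and how reads with several alignments were handled, is not given in the sources used here, and a row has no single genomic position. Each column is a whole multiple of 1 step, so reads were recovered as value over step: 100% of values came within 0.01 of a whole read (largest distance 3.23e-05), with factors from 0.8997 to 1.301.

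Rows that reached 10 in 5 or more of the 12 libraries were tested, which left 857 and set aside 296 (0.117% of reads, 29 of them at 0 in all 12). Values were analysed as log2(value + 1) with limma 3.58.1 and an intensity trend in R 4.3.3, two-sided, with Benjamini-Hochberg adjustment over all tested rows called at 0.05. On that scale fold changes understate the change of low rows. TMM factors (edgeR 4.0.16) came from the recovered reads. Families were tested as sums, and single values with exact permutation tests over all assignments of 6 of the 12 libraries. Counts are not per length and are not compared between rows as levels. On the recovered reads edgeR's quasi-likelihood test called 2 rows and DESeq2 1.42.0 with the factors of the authors called 1. The scripts were tested on simulated data.

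Members and lists were chosen with earlier results of these data known. Elements are named by rule: those called, topped up to 6 in each direction and scale by smallest p, the B2 family, the 10 rows of highest mean, and in each list the 2 rows of highest mean and the row of smallest p, 85 in all. Groups follow the titles. The alternatives were other pseudocounts, filters, scalings, tools, labels, lanes and sets of libraries.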

Additional observations from a re-analysis of the deposited data

Results flagged for a closer look

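In 17 groups of 6 libraries, 9.24% of those examined, 1 library lay far from the other 5. Independent, normally distributed values would give about 1 in 20. The values examined share libraries, and some rows were named for a small p, so they are not independent. Whether their share exceeds chance was not tested. Values are TMM-rescaled counts. Sample_183, titled non-transgenic, was high in RLTR45-int (287.7, next 68.2), IMPB_01 (5787, next 5245), MER81 (331.9, next 264) and X6B_LINE (1099, next 972.5), and its typical element level was -0.35 (next 0.0151). Of the other non-transgenic libraries, Sample_192 had 9582 for B1F (next 9873) and 175.5 for CYRA11_Mm (next 156.9). Sample_193 had 64.1 for RLTR30D_MM (next 76.5) and 1283 for ZP3AR (next 1238), and Sample_181 had 119.1 for MER94 (next 83.9).

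Among rTg4510 libraries, Sample_196 had 304.1 for RLTR45-int (next 156.2) and 84.9 for MLTR13 (next 67.6). Sample_189 had 1551 for IAPEz-int (next 1398) and 307.7 for L1_Mm (next 246). Sample_186 had 91060 for ORR1A4 (next 59480), Sample_191 had 22.3 for hAT-N1_Mam (next 15.4), and Sample_198 had 187.7 for RLTR6-int (next 195.3).

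The genotype difference of IAPEY4_I-int at 6 months minus that at 9 months was 0.94 on the log2 scale by the interaction term of limma, with an adjusted p of 0.0488.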

How the results depend on the processing

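Grouping by the genotype in the characteristics changed most results. It called 7 elements on the deposited scale (main 2), all higher, 0 on the TMM scale (main 2) and 0 families (main 2). It gave 0.161 for the typical level (exact permutation p = 0.0346), -0.009 for log2 B3 to B3A, -0.016 for B3 to the other SINEs, 0.040 for the LINE share and -0.263 for the LTR share, 0.313 (deposited) and 0.149 (TMM) for MamGypLTR3a, -0.116 for RLTR45-int (deposited) and 0.058 for the UCON31 family. Of these 7 elements, L1MEd, ETnERV2-int, RMER17B, B1_Mm and L1Md_T are among the 8 that differed between lanes.

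On the deposited scale 0 elements were called with all 35 libraries, 1 in lane 7 alone, 1 with a robust prior (chosen after seeing the data), 1 with DESeq2 and 21 with array weights. On the TMM scale 1 was called with all 35 libraries. Among families 1 was called with all 35 libraries, without a filter, with the characteristics as a factor, with lane as a factor and in lane 7 alone. Over all rows the SINE share differed by 0.936 and the LINE share by -1.178 percentage points. Leaving out Sample_207 and Sample_208, chosen after seeing the data, moved the count against 9 months from 1 to 14 of 857 rows. These libraries were picked because they lay on the side of the other genotype at 9 months. The count of 14 therefore depends on that choice and is not read as a difference between the ages. Causes were not tested.

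Leaving out 1 library gave 1 (without Sample_189) to 4 (without Sample_195) elements on the deposited scale, 2 to 7 on the TMM scale (6 without Sample_183, 4 without Sample_189, 7 without Sample_198) and 0 to 3 families, -0.096 to 0.011 for the typical level, 0.238 to 0.264 and 0.236 to 0.255 for the 2 ratios of B3, and 0.326 to 0.573 (SINE), -0.470 to -0.276 (LINE), -0.012 to 0.163 (LTR) and -0.101 to -0.009 (DNA) percentage points for the shares. B3 on the TMM scale stayed past the threshold in 25 of 25 alternatives grouped by title (log2 fold change 0.23 to 0.25, limma adjusted p 1.23e-09 to 0.00301), against 0 of 23 on the deposited scale (0.13 to 0.25), and MamGypLTR3a on the TMM scale in 24 of 25 (-0.97 to -0.74, adjusted p 1.37e-05 to 0.527). No paired analysis was possible because each sample number belongs to 1 library and no 2 groups share one. Rows of few reads, such as MamGypLTR3a with as few as 75, are limited by depth.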

Other observations

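Among the 296 rows set aside for low values, 2 had groups that did not overlap or met at 1 value, and both were chosen after their values were seen. Beside them, 10 of the 857 tested rows (1.17%) had groups that did not overlap on the TMM scale, so such rows are no particular trait of those set aside. LTR28 had 0 to 3 reads in non-transgenic and 3 to 21 reads in rTg4510 libraries. LTR34 had 2 to 4 reads in non-transgenic and 0 to 2 in rTg4510 libraries. With no filter on low values, LTR28 was called on the deposited and on the TMM scale.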
